A study of Mus musculus with 12 samples.

Results

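The carbonic anhydrases measured here were 10 genes of the family, Car2, Car3, Car4, Car5b, Car7, Car8, Car10, Car11, Car12 and Car14, out of 23238 gene symbols counted in mouse dorsal root ganglia. They were taken by symbol. The set was picked because Car3 was among the largest increases after nerve injury in these same libraries, so the injury values of the 10 genes are given as a description, without a test. Dorsal root ganglia contain the cell bodies of sensory neurons, some of which send axons into the sciatic nerve. Ganglia of lumbar levels 3 to 5 were taken from C57BL/6 mice at 8 weeks of age. The 12 libraries formed 4 groups of 3: females with sciatic nerve injury (SNI), sham-operated females, males with SNI and sham-operated males. No transgene or drug is named in the labels. The form of the injury, the time after it and whether each library came from its own animal are not stated in the labels, so p-values reflect how these libraries spread, which may be technical.

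Carbonic anhydrases are zinc enzymes that convert carbon dioxide and water to bicarbonate and a proton, and back. The isoforms differ in place: some are cytosolic, 1 of those measured here is mitochondrial, and others are held on the outer face of the plasma membrane. Car8, Car10 and Car11 encode carbonic anhydrase-related proteins, which keep the fold of the family but lack the enzyme activity. In dorsal root ganglia carbonic anhydrase activity has long been used as a stain of large-diameter neurons.

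For Car10 and Car11 the difference from the enzymes can be read in the coding sequence. The zinc ion of the enzymes is held by 3 histidines, which in Car2 and Car3 are codons 94, 96 and 119. The stretches below run from the first of these positions to the last, in GENCODE vM21 transcripts of build GRCm38 (mm10), 5′ to 3′ on the coding strand. Histidine codons at the 3 positions are in capitals. Car2 and Car3 are shown as the enzymes and Car10 and Car11 as related proteins.
Car2: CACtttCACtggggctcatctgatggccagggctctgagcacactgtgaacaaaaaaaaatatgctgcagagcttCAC
Car3: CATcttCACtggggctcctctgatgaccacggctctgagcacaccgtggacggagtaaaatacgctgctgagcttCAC
Car10: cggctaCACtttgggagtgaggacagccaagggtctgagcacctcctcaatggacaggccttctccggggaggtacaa
Car11: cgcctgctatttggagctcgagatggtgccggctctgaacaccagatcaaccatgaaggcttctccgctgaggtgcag
Car2 and Car3 kept all 3 histidine codons, Car10 kept 1 of 3 and Car11 kept 0 of 3. At the first position Car10 had CGG and Car11 CGC, which both encode arginine. The enzymes Car4, Car5b, Car7, Car12 and Car14 kept all 3 as well. Of the 78 bases in the stretch, Car3 shared 65 with Car2, Car11 shared 41 and Car10 shared 39. The stretch crosses an intron in each of these genes: it lies in exons 3 and 4 of Car2 (chr3:14895069-14895540, plus strand) and of Car3 (chr3:14866850-14868354, plus strand), in exons 5 and 6 of Car10 (chr11:93490606-93578671, plus strand) and in exons 4 and 5 of Car11 (chr7:45702548-45702838, plus strand).

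Library totals ran from 12476606 to 15520746 counts, which makes 3 counts equal to 0.191 to 0.244 CPM (the count scaled by edgeR to a common library total, with TMM factors). Atf3, a transcription factor induced in injured sensory neurons, was at 275 to 361 CPM in the SNI libraries and at 43.6 to 56.7 CPM in the sham libraries. Markers of sensory neurons were present in every library, with a summed level of 11430 to 15500 CPM. Male SNI replicate 2 and Female sham replicate 2 stood apart from the others on the first principal component, which held 27.2% of the variance. All 10 members passed the filter on low counts. Counts from this 3′ kit are not divided by transcript length, and levels are compared here between libraries, not between genes. In bulk tissue, fewer cells of a type and less RNA per cell cannot be told apart.

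Car3 transcripts were several times more abundant after injury in both sexes, Car8 transcripts were at 0.628 of the sham level, and the SNI and sham libraries of the other 8 members overlapped. By edgeR's quasi-likelihood test at an adjusted p below 0.05, the rule that called 6.52% of the 15036 tested genes (3.78% higher and 2.73% lower in SNI), 2 of 10 members were called, Car3 as higher and Car8 as lower. Since the set was picked on this contrast, nothing is read from that share. The median log2 change of the 10 members was -0.11, and that of all tested genes was 0.0031.

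**Figure D1:**
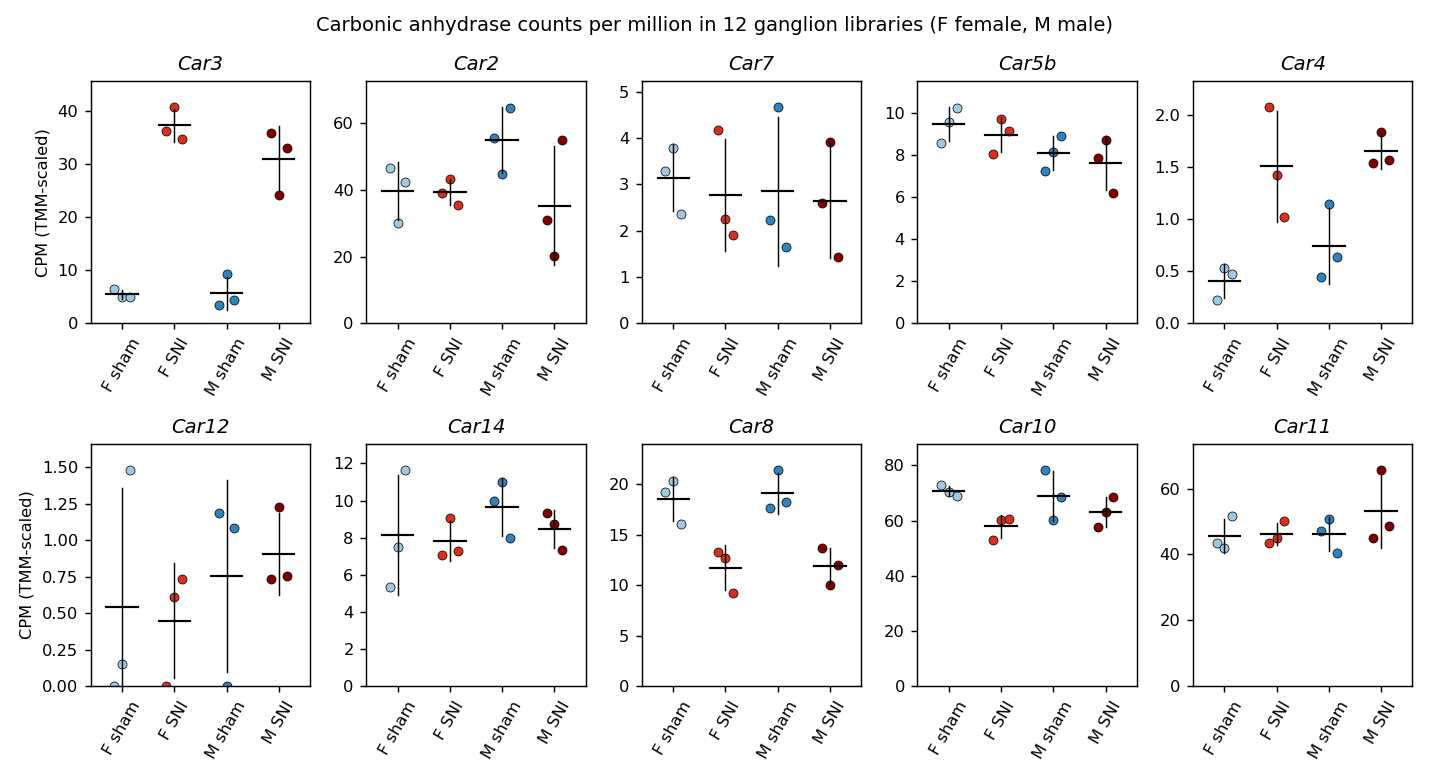
CPM (linear axis from 0, TMM-scaled) of the 10 carbonic anhydrases in each of the 12 libraries. Points are libraries, horizontal bars are group means and vertical bars are 1 SD over 3 libraries (cropped at 0 for Car12). The SNI points of Car3 lie at 24.1 to 40.8 CPM, all above its sham points at 3.42 to 9.26 CPM, and those of Car8 at 9.18 to 13.7 CPM lie below its sham points at 16.0 to 21.4 CPM.

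Car3 encodes a cytosolic carbonic anhydrase of low hydratase activity that is best known from skeletal muscle and fat cells. The gene lies on chromosome 3 (chr3:14863538-14872381, plus strand). In sham ganglia Car3 stood at 6.44, 4.99 and 4.99 CPM in the 3 female libraries and at 3.42, 9.26 and 4.52 CPM in the 3 male libraries. After injury it stood at 36.4, 40.8 and 34.8 CPM in females and at 35.9, 24.1 and 33.1 CPM in males. The lowest SNI library, Male SNI replicate 2, lay above the highest sham library, Male sham replicate 2, so that the groups did not overlap. The SNI libraries lay above the sham libraries in this way for 2.79% of tested genes, and below them for 2.04%. The log2 change of Car3 was 2.60 ± 0.218 (standard error of the model, here and below), a 6.08-fold higher level, which ranked 73 of 15036 tested genes by log2 change. It was 2.77 ± 0.311 in females and 2.44 ± 0.307 in males, and without Male sham replicate 2 the male value was 2.96 ± 0.263.

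Whether Car3 responded differently in the sexes was tested, because the choice of the set did not use that contrast. The male change minus the female change was -0.33 ± 0.419 (interval of 2 standard errors -1.17 to 0.51, edgeR quasi-likelihood adjusted p = 0.799). Averaged over sham and SNI, Car3 in males minus females was -0.10 ± 0.21 (interval -0.52 to 0.32, adjusted p = 1). Neither difference passed the test, and the interval of the first still allows a change more than 1 log2 unit smaller in males than in females.

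Markers of the cell types best known for Car3 were measured beside it. The summed level of 14 skeletal muscle markers was 24.0 to 107 CPM (Female SNI) and 21.6 to 37.5 CPM (Female sham), 61.4 to 2162 CPM (Male SNI) and 25.9 to 107 CPM (Male sham). The value of 2162 CPM belonged to Male SNI replicate 1, and 0 of the 13 tested muscle markers were called, at a median log2 change of 2.62. Car3 in that library, at 35.9 CPM, was the highest of the Male SNI group, above 24.1 and 33.1 CPM. It lay within the range of the Female SNI libraries. The change of Car3 was 2.54 ± 0.23 without that library. Among the sham libraries, Male sham replicate 2 had both the most Car3 (9.26 CPM) and the highest muscle sum (107 CPM). Acta1, the most abundant of the list, reached 445 CPM, and Myh7 was at 0 in 9 libraries. The summed level of 9 adipocyte markers was 33.1 to 36.2 CPM in Female SNI, 37.4 to 50.7 CPM in Female sham, 33.3 to 41.8 CPM (Male SNI) and 30.6 to 39.3 CPM (Male sham). Most of that sum came from Plin4, at 25.0 to 39.8 CPM. The other fat cell markers were low: Adipoq never exceeded 0.884 CPM, and Lep was at 0 in 10 libraries. Adig was at 0 in 7, and Plin1 and Retn were each at 0 in 6. Fabp4 had counts in every library, at 0.154 to 4.93 CPM, and was higher in each Female SNI than in each Female sham library. Cfd and Cidec reached 4.38 and 4.04 CPM. Macrophage markers moved with injury as Car3 did, with 9 of 10 called as higher and a summed level of 311 to 391 CPM in Female SNI, 129 to 185 CPM in Female sham, 264 to 443 CPM (Male SNI) and 116 to 148 CPM (Male sham). With group means subtracted, log2 CPM of Car3 correlated over the 12 libraries with the log2 muscle sum at r = 0.497. With the adipocyte sum r was 0.405, and with the macrophage sum it was -0.101. The part of muscle, fat cells or macrophages in the level of Car3 was not tested.

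Car8 encodes a related protein without enzyme activity that binds the inositol trisphosphate (IP3) receptor, a calcium release channel of the endoplasmic reticulum, and lowers its affinity for IP3. The gene lies at chr4:8141493-8239041 on the minus strand. In sham ganglia Car8 stood at 19.3, 20.3 and 16.0 CPM in females and at 17.6, 21.4 and 18.3 CPM in males. After injury it stood at 13.3, 12.7 and 9.18 CPM in females and at 13.7, 10.1 and 11.98 CPM in males. Every SNI library lay below every sham library, opposite in direction to Car3. The log2 change was -0.67 ± 0.146, with -0.66 ± 0.206 in females and -0.68 ± 0.206 in males. The difference between those changes, males minus females, was -0.02 ± 0.291 (interval -0.61 to 0.56, edgeR quasi-likelihood adjusted p = 0.981). Without the 2 libraries that stood apart, the change was -0.58 ± 0.153, against 2.66 ± 0.202 for Car3. Some markers of large-diameter neurons, in which Car8 and Car2 are described, moved the same way: 5 of 10 fell and 0 were called as higher. The summed level of the 10 was 2924 to 3055 CPM in Female SNI and 3825 to 5053 CPM in Female sham. In males it was 2913 to 4191 CPM (Male SNI) and 4434 to 4724 CPM (Male sham). Most of that sum came from Nefh, at 2335 to 4262 CPM. Spp1 was not called, but lay at 41.6 to 45.5 CPM in Female SNI, above its 16.0 to 32.5 CPM in Female sham. The part of large-diameter neurons in the level of Car8 was not tested.

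The IP3 receptor genes, the binding partners of Car8, were followed as a list of 3. Itpr1, which encodes the receptor type that the Car8 protein is known to bind, rose 1.91-fold (log2 change 0.93 ± 0.165, edgeR quasi-likelihood adjusted p = 0.00343). It stood at 12.6, 6.96 and 13.8 CPM in Female sham and 23.9, 22.0 and 24.8 CPM in Female SNI, and at 9.21, 11.02 and 10.8 CPM in Male sham and 18.4, 15.8 and 19.0 CPM in Male SNI. Its SNI libraries did not overlap its sham libraries. Exons of Itpr1 overlap 2 genes on the opposite strand, and the labels do not say whether counting used strand, so its count is uncertain to that extent. Itpr2 (0.15 ± 0.136, adjusted p = 0.646) and Itpr3 (0.01 ± 0.11, adjusted p = 0.977) did not pass the test. In every SNI library Car8 was lower and Itpr1 higher than in every sham library.

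**Figure D2:**
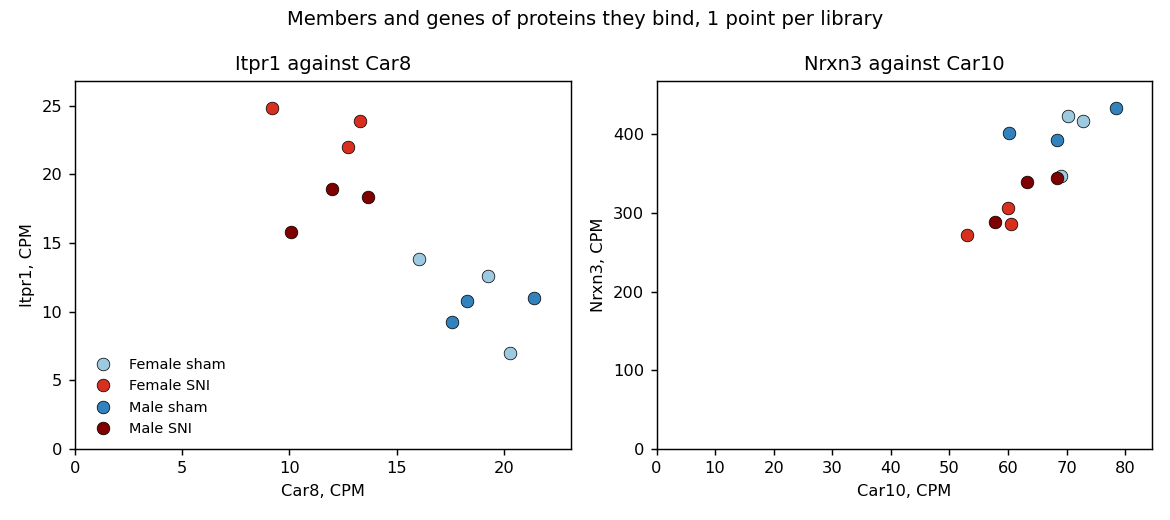
Levels of Itpr1 against Car8 (left) and of Nrxn3 against Car10 (right) in CPM on linear axes from 0, with 1 point per library coloured by group. The SNI points lie at low Car8 (9.18 to 13.7 CPM) and high Itpr1 (15.8 to 24.8 CPM), apart from the sham points, while on the right the SNI points lie at 272 to 344 CPM of Nrxn3, below the sham points at 347 to 433 CPM, with overlapping Car10.

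Car10 and Car11 encode secreted related proteins that bind neurexins, presynaptic adhesion molecules. Car10 (chr11:93096805-93601751, plus strand) stood at 72.9, 70.2 and 69.1 CPM in Female sham and 53.1, 60.1 and 60.5 CPM in Female SNI. In males it stood at 78.4, 60.2 and 68.4 CPM in sham and 57.8, 63.2 and 68.4 CPM in SNI. The female groups did not overlap, whereas the male groups did. The log2 change was -0.21 ± 0.0924, with -0.29 ± 0.131 in females and -0.13 ± 0.131 in males, and the difference of the changes did not pass the test (0.16 ± 0.185, adjusted p = 0.778). Car11 (chr7:45699171-45704687, plus strand) lay between 40.6 and 51.5 CPM in the sham libraries and between 43.5 and 65.7 CPM in the SNI libraries, with a log2 change of 0.11 ± 0.117. The highest Car11 value belonged to Male SNI replicate 2, which stood apart.

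The neurexin gene Nrxn3 fell after injury. It fell by 0.40 ± 0.0836 on the log2 scale (edgeR quasi-likelihood adjusted p = 0.0102), from 347 to 424 CPM in Female sham to 272 to 306 CPM in Female SNI and from 393 to 433 CPM in Male sham to 288 to 344 CPM in Male SNI. Nrxn2, with the highest count among the neurexin genes, was at -0.19 ± 0.118 (adjusted p = 0.448). Exons of Nrxn2 and Nrxn3 overlap other genes on the opposite strand, which leaves their counts uncertain to that extent.

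Among the cytosolic and mitochondrial enzymes of the set other than Car3, injured and sham libraries overlapped. Car2 (chr3:14886269-14900770, plus strand) encodes the fast cytosolic enzyme. It stood at 46.8, 30.1 and 42.4 CPM in Female sham and 39.2, 43.4 and 35.5 CPM in Female SNI. In males it stood at 55.6, 44.9 and 64.6 CPM in sham and 31.1, 20.1 and 54.9 CPM in SNI. The male SNI libraries were the most scattered of the 4 groups. The log2 change was -0.33 ± 0.203, with -0.01 ± 0.288 in females and -0.64 ± 0.288 in males. The difference of the changes was -0.62 ± 0.407 (interval -1.44 to 0.19, edgeR quasi-likelihood adjusted p = 0.667). Male SNI replicate 3 weighed most on Car2: without it the averaged change was -0.56 ± 0.156 and the male change -1.10 ± 0.239. Car7 (chr8:104534694-104550347, plus strand), a cytosolic enzyme best known from brain neurons, lay between 1.44 and 4.67 CPM with a log2 change of -0.14 ± 0.358. Car5b, the mitochondrial enzyme, is on the X chromosome (chrX:163976822-164028010, minus strand) and lay between 6.23 and 10.2 CPM, with an injury change of -0.09 ± 0.155. Car5b in males minus females was -0.23 ± 0.155 (interval -0.54 to 0.08, adjusted p = 1).

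The membrane enzymes were counted at low depth. Car4 (chr11:84957754-84966054, plus strand), which is held on the cell surface by a lipid anchor and is known from capillary endothelium, had 3 to 15 counts in the sham libraries and 14 to 32 in the SNI libraries. Its level was 0.225, 0.529 and 0.472 CPM in Female sham and 2.08, 1.43 and 1.03 CPM in Female SNI. In males it was 0.446, 1.15 and 0.637 CPM in sham and 1.54, 1.84 and 1.57 CPM in SNI. Within each sex the SNI libraries lay above the sham libraries, but Female SNI replicate 3 lay below Male sham replicate 2. The log2 change was 1.51 ± 0.448, with 1.87 ± 0.647 in females and 1.15 ± 0.619 in males. The filter asked for about 0.713 CPM, a level met by 6 of 6 SNI and 1 of 6 sham libraries, so that Car4 entered the fit through the SNI libraries. Endothelial markers summed to 68.1 to 86.9 CPM in Female SNI, 53.5 to 77.8 CPM in Female sham, 68.1 to 72.2 CPM (Male SNI) and 57.7 to 67.3 CPM (Male sham), with 0 of 8 called. Flt1 was the most abundant of them. Their part in the level of Car4 was not tested.

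The transmembrane enzymes Car12 and Car14 showed no separation. Car12 (chr9:66712296-66766845, plus strand) had 0 to 22 counts and was at 0 in 3 libraries, 1 each of Female SNI, Female sham and Male sham, where 3 counts would be the limit that a count of 0 allows. Its log2 change of -0.03 ± 0.925 carried the largest standard error of the 10 members, and its sign differed in 8 of 20 alternative analyses. Car14 (chr3:95897768-95905117, minus strand) lay between 5.32 and 11.7 CPM with a log2 change of -0.13 ± 0.2. Exons of Car14 share 445 bases with Aph1a on the opposite strand, so its count is uncertain to that extent.

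**Figure D3:**
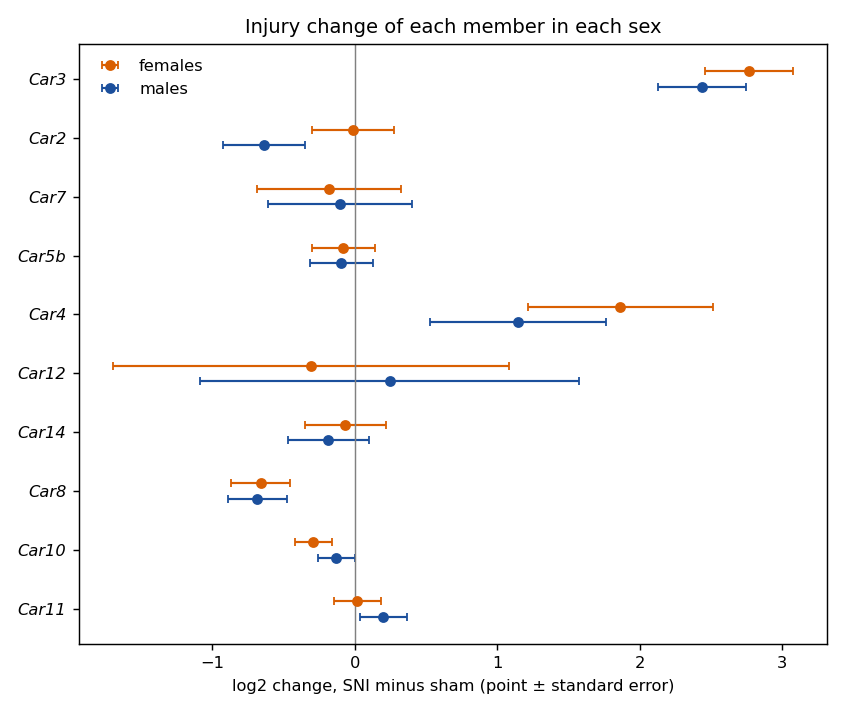
Log2 change after injury (SNI minus sham) of each of the 10 carbonic anhydrases in females and in males. Points are model estimates and bars are 1 standard error. Car3 lies at 2.77 and 2.44 and Car8 at -0.66 and -0.68, and the bars of Car12 are the widest.

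Across the 10 members, 0 passed the test of the sex by injury interaction and 0 passed that of sex. The interaction called 0% of the 15036 tested genes by edgeR's quasi-likelihood test and by DESeq2 alike, with 1100 genes at an unadjusted p below 0.05. The comparison of males with females averaged over injury called 7 genes, or 0.0466% of those tested.

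The members also differed in how far replicates of a group lay apart. The within-group SD of log2 CPM was lowest for Car10 (0.126), Car5b (0.17), Car11 (0.192) and Car8 (0.214), below the median of 0.324 over tested genes. It was 0.329 for Car14, 0.41 for Car3, 0.425 for Car2, 0.442 for Car4, 0.599 for Car7 and 1.48 for Car12. Car12, Car4 and Car7 were also the members with the fewest counts. The 10 members summed to 189 to 234 CPM in all 12 libraries. Within that sum Car3 took 1.53 to 4.37% in sham and 11.6 to 18.1% in SNI libraries, and Car8 took 7.63 to 10.7% in sham and 4.37 to 6.64% in SNI libraries. These shares are of 3′ counts, 1 per read.

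The genes nearest to Car3 in the genome are carbonic anhydrases too. Car13, Car1, Car3 and Car2 lie in that order within 259 kb of chromosome 3 (GRCm38), and 13.9 kb separate Car3 from Car2. Car1 is on the minus strand and lies 55.2 kb from Car3. Of the 6 family genes outside the set, Car1, Car13 and Car15 passed the filter on low counts and were tested for injury over all genes. Car1, the cytosolic enzyme of red blood cells, rose 3.37-fold (log2 change 1.75 ± 0.27, edgeR quasi-likelihood adjusted p = 0.0012). It stood at 0.824, 1.06 and 1.48 CPM in Female sham and 5.98, 4.69 and 7.12 CPM in Female SNI, and at 1.41, 1.76 and 2.42 CPM in Male sham and 3.49, 3.61 and 5.07 CPM in Male SNI. Every SNI library lay above every sham library, as for Car3. The male change of Car1 minus its female change was -1.27 ± 0.532, which did not pass the test (adjusted p = 0.647). Erythroid markers summed to 2845 to 6215 CPM in Female SNI, 4897 to 5730 CPM in Female sham, 4872 to 6967 CPM (Male SNI) and 4576 to 7483 CPM (Male sham), with 0 of 7 called and Hba-a1 the most abundant. Macrophage markers, given above, were higher after injury as Car1 was, and their part in its level was not tested.

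**Figure D4:**
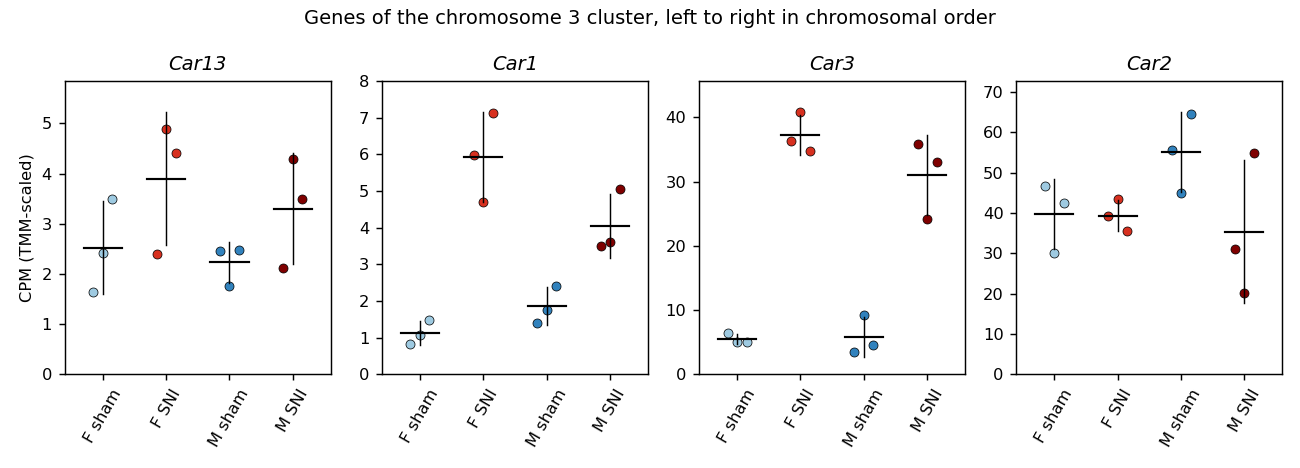
CPM (linear axes from 0, TMM-scaled) of the 4 carbonic anhydrase genes that neighbour each other on chromosome 3, in chromosomal order. Points are libraries, horizontal bars are group means and vertical bars are 1 SD over 3 libraries. SNI and sham points are apart for Car1 and Car3 and overlap for Car13 and Car2.

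Car13, a cytosolic enzyme, lay between 1.65 and 3.5 CPM in sham and 2.11 and 4.89 CPM in SNI libraries and did not pass the test (0.59 ± 0.304, adjusted p = 0.333). In this cluster the log2 changes thus ran 0.59, 1.75, 2.60 and -0.33 from Car13 to Car2. Car15, whose exons overlap another gene on the same strand, was at 0.22 ± 0.33 (adjusted p = 0.805). Car5a, Car6 and Car9 had too few counts to be tested, none above 1.61 CPM in any library.

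Transporters and sensors that share bicarbonate and protons with these enzymes were followed as lists. Over all tested genes the same test called 6.52%, with 3.78% higher and 2.73% lower in SNI. Nothing is read from the few calls in these short lists. Of 15 bicarbonate transporter genes 10 were tested, of which 1 rose and 0 fell, at a median log2 change of -0.07. The riser was Slc4a8, a sodium-driven chloride-bicarbonate exchanger of neurons, at 15.8 to 23.2 CPM (Female sham) and 23.7 to 29.9 CPM (Female SNI), and 11.5 to 17.5 CPM (Male sham) and 23.3 to 38.6 CPM (Male SNI) (0.81 ± 0.164, edgeR quasi-likelihood adjusted p = 0.00795). The lowest SNI library exceeded the highest sham library by a small margin. Slc4a4, a sodium-bicarbonate cotransporter with the highest count of the list, was at -0.21 ± 0.0924 (adjusted p = 0.237). Of 15 proton and lactate transporter genes 11 were tested, of which 0 rose and 1 fell, at a median of -0.11. The gene that fell was Slc9a9, an endosomal sodium-proton exchanger with the highest mean count of its list. It stood at 240 CPM in each Female sham library and 164 to 174 CPM in Female SNI, and at 225 to 245 CPM (Male sham) and 183 to 204 CPM (Male SNI) (-0.40 ± 0.0695, adjusted p = 0.00315).

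Of 8 proton sensor genes 7 were tested, of which 0 rose and 1 fell, at a median of -0.04. Asic1, an acid-sensing ion channel, stood at 53.0, 53.8 and 63.5 CPM in Female sham and 27.1, 26.6 and 30.6 CPM in Female SNI. In males it stood at 43.5, 41.4 and 44.6 CPM in sham and 28.9, 49.7 and 26.0 CPM in SNI, where the 49.7 CPM of Male SNI replicate 2 lay above the male sham libraries. The log2 change of Asic1 was -0.66 ± 0.146 (edgeR quasi-likelihood adjusted p = 0.0144). Asic2, with the highest count of the list, was at -0.20 ± 0.227 (adjusted p = 0.724). None of the tested genes of these lists, of the IP3 receptors or of the neurexins was called in the sex by injury interaction.

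The genes whose levels followed Car3 and Car8 most closely over the 12 libraries were found by Pearson's r of log2 CPM among 10850 genes with a mean of at least 5 CPM. Since the libraries share the split into injured and sham, these values describe that split and carry no p. For Car3 they were Apba2 (r = 0.982), Cdkn1a (0.981), Nts (0.98), Itga7 (0.975) and Procr (0.974). Nts encodes the neuropeptide neurotensin, Cdkn1a the cell cycle inhibitor p21 and Itga7 a laminin receptor subunit. For Car8 they were Relt (0.939), Rogdi (0.937), Zfp354c (0.927), Rgs10 (0.927) and Pigz (0.924). After the mean of each group was subtracted, the closest genes were others: Mbd1 (0.936), Frmd6 (0.91), Sdc2 (0.896), Hcn3 (0.892) and Dennd6a (0.879) for Car3, and Stx18 (0.923), Prkab2 (0.923), Sept6 (0.916), Ppp1ca (0.902) and Apoo (0.901) for Car8.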

How the data were processed

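Libraries from polyadenylated RNA were made with the QuantSeq 3′ mRNA kit and sequenced as single reads on a NextSeq 500, per the labels' protocols. Per the file headers, the deposited tables give unnormalized counts, listed by gene symbol. For Male sham replicate 1 the header says raw data rather than raw count, and its values are whole numbers like the others. Tools named in the submitters' processing notes are Bowtie2 and bedtools, with the build mm10. How strand, multiply mapped reads and duplicate molecules were handled is not stated there, so shared exons make a count uncertain, and floors cover counting error only.

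Rows of the same symbol (44 extra of 23282) were summed. Genes were kept by filterByExpr (minimum count 10), scaled by TMM and fitted with edgeR 4.0.16 (limma 3.58.1, R 4.3.3) in 1 model with a coefficient per group over all 12 libraries. Two-sided quasi-likelihood F tests were adjusted by Benjamini-Hochberg over 15036 genes and called below 0.05. The standard error is the absolute log2 change divided by the square root of F. The fit was also run on simulated counts with known changes and the same spread for every gene. That run checked the code only, and says nothing of uneven spread or of libraries that stand apart. The 10 members, the 5 pathway lists, the 9 marker lists and the tests were chosen with earlier results of these data known. Named genes were all family genes, the called genes of each pathway list (up to 4), its most abundant gene and the 5 genes most like Car3 and Car8. Markers of satellite glia (summed level 4975 to 9009 CPM, 1 of 8 rose) and myelinating Schwann cells (3972 to 6106 CPM, 0 of 8 called) were measured too, and 3 of 10 sensory neuron markers fell. Replicates of a group differed by more than sampling noise (chi-square per gene at least 8.31). Gene positions are RefSeq's for GRCm38.p6, exon overlaps and coding sequences GENCODE vM21's. Some items of the lists and sequences are not reported here. A planned alignment of member proteins was replaced by the coding stretches, and proteins were not analysed here. Alternatives were other scalings, no filter, DESeq2 1.42.0, limma voom with quality weights, a replicate block, no Rn45s (ribosomal RNA), each sex alone, and leaving out libraries.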

Additional observations from a re-analysis of the deposited data

How the results depend on the processing

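The number of genes called for injury, 980, ranged from 626 to 1766 when single libraries were left out (648, 652 and 626 without Female SNI replicates 1, 2 and 3, 631 without Male sham replicate 1 and 1766 without Male SNI replicate 2). It was 2008 by limma voom with quality weights, 1848 without both libraries that stood apart and 1385 by DESeq2. The number called for sex, 7, was 12 by DESeq2 and 11 without both libraries that stood apart, and 6 to 9 when single libraries were left out. The interaction called 0 genes in all 20 alternatives. The members past the call threshold for injury, a contrast on which the set was picked and from which nothing is read, numbered 2 or 3: Car4 was added by DESeq2 and by limma voom, having entered the fit through its SNI libraries, and Car2 without Male SNI replicate 3. Over the alternatives Car3 ranged from 2.48 to 2.86, Car8 from -0.73 to -0.56 and Car1 from 1.64 to 1.88, and no called change reversed. Without Female sham replicate 3 the change in females was 2.42 for Car12 and 0.27 for Car14, opposite in sign to the reported values. With the replicate number as a block, 936 genes were called for injury, 0 for the interaction and 6 for sex, and no call of a member or named pathway gene changed. No clear pairing of the libraries by number was seen, which does not exclude one. Deviations of same-numbered libraries correlated at -0.0906 to 0.425, over 0.1 in 3 of 18 pairs, and 5 of 12 libraries correlated best with their own number. Depth limits Car4, Car7 and Car12, whose counts reached 0 to 64 per library.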
